A study of Mus musculus with 8 samples.

Results

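In MIN6 cells transfected with a Klf4 plasmid, 7503 wide stretches of open chromatin lay inside protein-coding genes and had no overlapping peak in the list of cells given an empty plasmid. These Klf4-only intragenic peaks were chosen from 27405 wide intragenic peaks of the Klf4 list, a share of 27.4%. The list holds 128726 peaks in all. A member is a peak of the Klf4 list on chromosomes 1 to 19 or X that is at least 500 bp wide, overlaps a protein-coding gene of GRCm38, lies more than 1 kb from every end of such a gene, and shares no base with any peak of the empty vector list. The remaining 19902 wide intragenic peaks of the Klf4 list overlapped an empty vector peak and are called shared peaks here.

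The study asked how Klf4, when expressed in beta cells, alters chromatin accessibility. It used ATAC-seq, in which a transposase inserts adapters where DNA is not packed, in 8 libraries of MIN6, a mouse insulinoma line that keeps many features of pancreatic beta cells. All were wild type by genotype and were transfected for 48 hours with the lipid reagent Lipofectamine 3000. The 4 control libraries received pcDNA 3 Empty Vector and the 4 Klf4 libraries received pGloMyc-Klf4, so the groups differ in the named plasmid as well as in Klf4. The values come from 1 merged peak list for each group. No replicate spread can be had from a merged list, so no difference below carries a test, and intervals on shares are 95% Wilson intervals that cover counting error only. The depth of each library is not given in the sources used here.

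Klf4 is a zinc-finger transcription factor of the Krüppel-like family, whose members bind GC-rich sites with a CACCC core. It is known for its part in the skin barrier and gut epithelium and as a reprogramming factor for pluripotent stem cells. Open regions inside genes can be enhancers of the host gene or of a neighbour, or promoters of shorter transcripts, and an ATAC-seq peak alone does not tell these apart.

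Some members covered a transcription start that RefSeq places inside the host gene, and these are the members whose sequence can be shown. The 200 bases before the start are printed for 7 of them from RefSeq promoter entries on GRCm38.p6, 5′ to 3′ on the strand of the gene. Kcnk2, Rnf144b, Prr5 and Pak6 are shown because they hold an 8-base KLF motif, CCACACCC or CCACGCCC on either strand (GGGTGTGG or GGGCGTGG when read from the other strand), which is in capitals. Zfp423 and Sbsn are the strongest members on coding starts without it, and Kcnh2 is a listed beta cell channel gene. The bases shown are chr1:189343708-189343907 (minus strand) for Kcnk2, chr13:47193803-47194002 (plus) for Rnf144b, chr15:84680798-84680997 (plus) for Prr5, chr2:118677046-118677245 (plus) for Pak6, chr8:87804440-87804639 (minus) for Zfp423, chr7:30751271-30751470 (plus) for Sbsn and chr5:24329592-24329791 (minus) for Kcnh2.
Kcnk2: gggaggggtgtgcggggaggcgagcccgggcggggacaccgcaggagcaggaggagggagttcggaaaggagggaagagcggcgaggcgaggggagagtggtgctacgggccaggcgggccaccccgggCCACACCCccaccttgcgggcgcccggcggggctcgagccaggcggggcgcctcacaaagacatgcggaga
Rnf144b: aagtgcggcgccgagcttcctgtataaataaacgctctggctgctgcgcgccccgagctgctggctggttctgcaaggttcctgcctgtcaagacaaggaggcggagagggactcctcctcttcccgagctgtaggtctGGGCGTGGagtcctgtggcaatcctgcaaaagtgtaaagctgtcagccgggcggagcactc
Prr5: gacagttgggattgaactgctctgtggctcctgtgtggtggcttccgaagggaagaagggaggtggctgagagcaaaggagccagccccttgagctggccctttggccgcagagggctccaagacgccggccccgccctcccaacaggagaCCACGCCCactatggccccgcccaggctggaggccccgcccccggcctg
Pak6: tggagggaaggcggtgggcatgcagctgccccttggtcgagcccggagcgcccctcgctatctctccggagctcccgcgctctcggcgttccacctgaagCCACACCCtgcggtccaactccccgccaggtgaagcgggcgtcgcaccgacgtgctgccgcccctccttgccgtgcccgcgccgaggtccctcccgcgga
Zfp423: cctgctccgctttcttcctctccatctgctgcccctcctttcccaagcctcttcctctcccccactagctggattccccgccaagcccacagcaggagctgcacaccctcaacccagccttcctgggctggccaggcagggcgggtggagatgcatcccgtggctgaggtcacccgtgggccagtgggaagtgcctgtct
Sbsn: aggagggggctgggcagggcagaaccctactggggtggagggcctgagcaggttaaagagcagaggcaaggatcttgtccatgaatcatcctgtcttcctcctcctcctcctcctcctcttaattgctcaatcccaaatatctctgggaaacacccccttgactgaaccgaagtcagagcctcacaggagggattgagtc
Kcnh2: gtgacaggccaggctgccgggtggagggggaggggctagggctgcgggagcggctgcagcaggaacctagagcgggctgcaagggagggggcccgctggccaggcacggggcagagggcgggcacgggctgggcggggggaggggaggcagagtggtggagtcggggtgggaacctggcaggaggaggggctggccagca

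The motif began 71 bases before the start in Kcnk2, a potassium leak channel gene, where the member had a deposited −log10 q of 38.4. In Rnf144b, a ubiquitin ligase gene, it began 61 bases before the start under a member of −log10 q 24.3. Prr5, which codes for a component of mTOR complex 2, had it 49 bases before a start 17.8 kb into the gene. Pak6, a p21-activated kinase gene, had it 100 bases before a start 14.2 kb into the gene, under a weaker member of −log10 q 7.32. The Zfp423 member was the strongest of those on a coding start, at −log10 q 46.0 and 157.6 kb into the gene. A match says only that these letters are present.

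The members were narrower and weaker than the shared peaks by their medians. Their width, fold enrichment and q-value belong to the peak calls that chose them, so these values are a description. Member widths had quartiles of 593, 732 and 970 bp, with a maximum of 3893 bp, and together they covered 6.29 Mb. Their fold enrichment, the authors' ratio of signal to local background, had quartiles of 2.74, 3.35 and 4.32, and their −log10 q had quartiles of 3.47, 6.43 and 11.6. Shared peaks had medians of 818 bp, 4.61-fold and a −log10 q of 13.6. In the empty vector list, wide intragenic peaks with a Klf4 peak had medians of 761 bp, 5.03-fold and a −log10 q of 15.5. A −log10 q of at least 10 was reached by 2325 members (31%), at least 20 by 645 (8.6%) and at least 50 by 31 (0.413%).

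The width threshold fell among peaks of like strength. The 240 members just above it, with a median width of 505 bp, had a median fold of 3.49 and a median −log10 q of 5.97. The 253 otherwise matching peaks just below it, with a median width of 495 bp, had 3.19 and 5.69. At the distance threshold, the 52 members just beyond 1 kb from a gene end had a median fold of 3.19 and a median −log10 q of 6.1, and 61 peaks just within it had 3.38 and 8.14.

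The share of wide intragenic Klf4 peaks without an empty vector peak fell as peaks grew stronger. It was 60.4% (57.4 to 63.3) of 1037 peaks with a −log10 q of 1 to 2, 33.9% (32.8 to 35.1) of 6528 peaks at 5 to 10, 11.3% (10.5 to 12.2) of 5430 peaks at 20 to 50, and 1.29% (0.912 to 1.83) of 2399 peaks at 50 or more. The mirrored rule, wide intragenic peaks of the empty vector list without a Klf4 peak, gave 1396 of 21726 peaks (6.43%). These empty-vector-only peaks were at the weak end: 49.6% (46.6 to 52.6) of peaks at a −log10 q of 1 to 2 but 0.468% (0.312 to 0.702) at 10 to 20, and 2 of 5145 peaks at 20 to 50. None of 3203 peaks at 50 or more was found only in the empty vector list, with a Wilson upper bound of 0.12%. The share was 36.7% over all Klf4 peaks on these chromosomes, 22.7% over those of 500 bp or more, and 23.8% over wide peaks more than 1 kb outside genes (5603 of 23539).

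More reads or a cleaner library let a peak caller find more weak peaks. Neither is known here, so a deeper Klf4 pool and chromatin open only with Klf4 cannot be told apart. With the Klf4 list shortened to the length of the empty vector list by −log10 q, 5620 members were left, 23.7% of the wide intragenic peaks then in it. In a bulk assay of transfected cultures, more cells with a site open and more cutting at the site per cell cannot be told apart either.

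**Figure D1:**
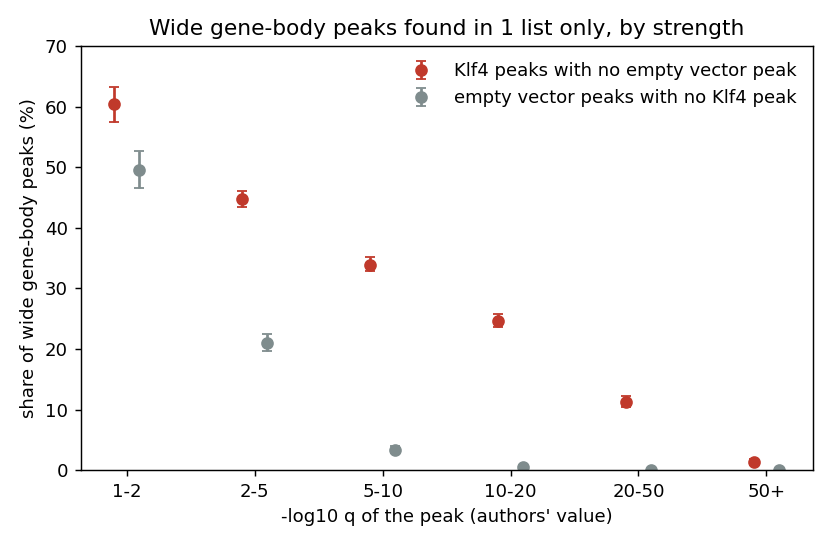
Share of wide peaks inside genes that have no overlapping peak in the other list (vertical axis, %), by the authors' −log10 q of the peak (horizontal axis), for the Klf4 list (red) and the empty vector list (grey), with 95% Wilson intervals that cover counting error only. The Klf4 share goes from 60.4% to 1.29%, and the empty vector share from 49.6% to 0, with the widest gaps between the lists at a −log10 q of 2 to 20.

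The 12 strongest members had −log10 q from 63.4 to 201. The highest, at 201, lay in Pced1b at chr15:97291706-97292592, 887 bp wide with 7.90-fold enrichment and 8182 bp from the nearest empty vector peak. It ranked 576 by −log10 q among the Klf4 peaks on these chromosomes. Next came members in Cc2d2b, a ciliary gene (−log10 q 121), Bfar, an apoptosis regulator (94.5), Nedd4l, a ubiquitin ligase of ion channels (92.8), and Ctnnd2, the gene for delta-catenin (92.0). The member in Tiam1, an activator of the GTPase Rac, was 2000 bp wide at chr16:89970278-89972277 with a −log10 q of 82.8. Those in Polr3b, an RNA polymerase III subunit gene, and Zfp951, a zinc-finger gene, had 81.5 and 77.3. Pdzrn4, Fbxo10, Tafa4 and Agmat, the gene for agmatinase, followed with 71.4, 68.1, 66.8 and 63.4. The Bfar and Zfp951 members had the highest folds of these 12, at 13.1 and 13.0.

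The widest members were weaker. Arl15, a small GTPase gene, held the widest at 3893 bp, with a fold of 2.56 and a −log10 q of 4.47. Atp8a2, a phospholipid flippase gene (3168 bp), Tnk2, a tyrosine kinase gene (2960 bp), C4b, complement component 4 (2952 bp), and Adgrl1, a latrophilin gene (2913 bp), had −log10 q between 3.82 and 6.58.

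The members were spread over 4124 of 21627 protein-coding genes (19.1%). Shared peaks lay in 34.3% of genes and empty-vector-only peaks in 5.46%. Most host genes, 2575 of them, held 1 member. Another 742 genes, 3.43% of all, held 3 or more, 242 held 5 or more, and 29 held 10 or more. The 242 genes with 5 or more held 22.7% of the members. No wide shared peak lay in 1291 of the host genes, and members outnumbered shared peaks in 1733.

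Longer genes held members more often, up to 500 kb. Of genes up to 10 kb, 2.51% held a member, of those of 20 to 50 kb 25.2%, of those of 200 to 500 kb 54% and of those over 500 kb 49.6%. A shared peak lay in 4.41% of genes up to 10 kb, 86% of those of 200 to 500 kb and 91.6% of those over 500 kb. The number of members for each shared peak went the other way, from 0.563 in genes up to 10 kb and 0.59 at 10 to 20 kb to 0.285 at 200 to 500 kb and 0.154 in genes over 500 kb. Over all genes there were 0.377 members per shared peak. Host genes had a median length of 48 kb, against 17.3 kb for all protein-coding genes and 48.3 kb for genes with a shared wide peak. The median gene length of each list is given below beside its count, and the part of length in the counts was not tested.

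The genes with the most members were of several kinds. Camta1, a calmodulin-binding transcription activator gene, held 22 members and 52 shared peaks. Cdh23, an atypical cadherin gene, held 18 and 20. Tns1, which codes for tensin 1 at focal adhesions, held 18 members and 8 shared peaks in 214 kb. Cdh4, the gene for R-cadherin, held 17 and 29. Rbfox3, a neuronal splicing factor gene, held 16 and 35. Prdm16, a zinc-finger regulator of brown fat, held 15 and 11, and Sorcs2, a sorting receptor gene, 15 and 25. Agap1, Zbtb7c and Zfp423 held 14 each, with 27, 6 and 7 shared peaks. Mad1l1, a spindle checkpoint gene, held 13 and 16. In Tns1, Prdm16, Zbtb7c and Zfp423 the members outnumbered the shared peaks, and the empty-vector-only peaks numbered from 0 to 3 in each of the genes named here.

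The members of Tns1 ran along most of the gene. The strongest, at chr1:74084020-74085080, lay 40 kb from the 5′ end with a −log10 q of 42.5, and the 18 members had a median of 8.20, with the weakest at 1.89. In Zfp423, whose product is a zinc-finger transcription factor, 7 of the 14 members lay in the stretch up to 97.7 kb from the 5′ end, where no shared wide peak lay, and the 7 shared peaks lay between 149 and 288 kb.

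**Figure D2:**
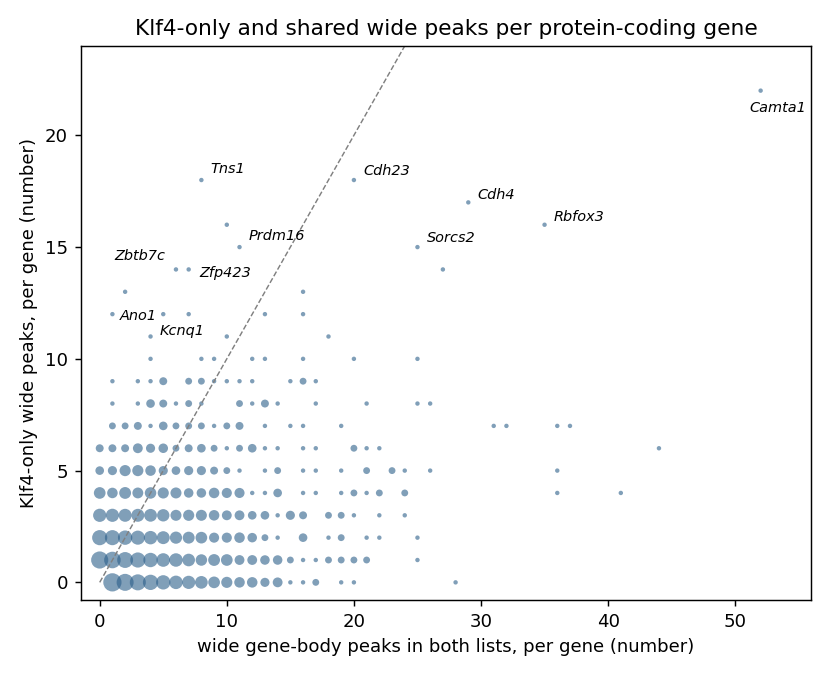
Number of Klf4-only wide peaks (vertical axis) against the number of shared wide peaks (horizontal axis) inside each protein-coding gene that holds at least 1 of either. Each point is a pair of counts, its area grows with the logarithm of the number of genes at that pair, and the dashed line marks equal counts. Tns1 (18 and 8), Prdm16 (15 and 11) and Zbtb7c (14 and 6) lie above the line, and Camta1 (22 and 52) far to its right.

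Ano1 stood out in the same counts and was chosen after its values were seen. Ano1, which codes for a calcium-activated chloride channel, held 12 members and 1 shared wide peak in 163 kb. Its members had −log10 q from 2.76 to 23.1, and 2 empty vector peaks of any width touched the gene against 21 Klf4 peaks. A further 7 genes held 5 or more members and no shared wide peak, also chosen after their values were seen. Kif1a, a kinesin motor gene, Runx2, a regulator of bone formation, and Tcf7l2, a Wnt effector gene, held 6 each. Cdc20b, Igsf3, Iqgap3 and St14, the gene for the epithelial protease matriptase, held 5 each. Between 2 and 6 empty vector peaks of any width touched each of these 7 genes, so none was without a peak in the control list. Kif1a held 2 empty-vector-only wide peaks and the others none.

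Genes with 3 or more members were also ranked by members per 100 kb, a measure that favours short genes. Tbkbp1, an adaptor of the kinase TBK1, had 19.6 members per 100 kb and C4b had 19, each with 3 members and no shared wide peak. Tle2, a Groucho corepressor gene, had 16.8. Abcb8, a mitochondrial transporter gene, and Loxl1, a collagen and elastin cross-linking enzyme gene, both had 15.7. Tead3, a Hippo pathway transcription factor gene, also had 15.7, Rsph6a, a ciliary gene, 15.2, and Pear1, a platelet receptor gene, 15. Of these 8 genes only Pear1 held a shared wide peak. Abcb8 and Loxl1 each held 1 empty-vector-only wide peak. At C4b no empty vector peak of any width touched the gene.

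Of 16 listed beta cell transcription factor genes, 4 (25%) held a member, 1 each, beside 35 shared wide peaks in 11 of the genes, and 0.114 members per shared peak. Their median length was 20.5 kb, and 25.2% of all genes of 20 to 50 kb held a member. The share of genes was thus near that of all genes of like length, but the 0.114 members per shared peak lay below the 0.483 of those genes. An empty vector peak of any width touched all 16, so control cells had open chromatin at every listed gene of this class. RNA was not measured here. Hnf4a, a nuclear receptor gene, had a member of −log10 q 14.1 at chr2:163547011-163547517, with a fold of 5.24. That in Glis3, a zinc-finger activator of the insulin gene, had 3.86, at exactly 500 bp beside 12 shared peaks.

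Of 12 alpha cell genes, 9.94 kb in median length, 2 (16.7%) held a member, against 2.51% of all genes up to 10 kb and 16.6% of those of 10 to 20 kb. Mamld1 held a member of −log10 q 6.47. The insulin granule and processing genes, 40.2 kb in median length, held 5 members and 58 shared wide peaks. The members lay in 2 of 15 genes (13.3%), while 25.2% of all genes of 20 to 50 kb held a member. The 0.0862 members per shared peak of the list lay below the 0.483 of all genes of 20 to 50 kb. Of these members, 4 lay in Ptprn2, a granule membrane protein gene, with −log10 q from 1.58 to 13.7.

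Genes for glucose sensing and membrane excitation held 45 members in 12 of 17 genes, beside 123 shared wide peaks, 0.366 members per shared peak. Their median length was 302 kb, and of all genes of 200 to 500 kb 54% held a member. The pore subunit gene of the P/Q-type calcium channel, Cacna1a, held 12 members and 13 shared peaks, with −log10 q from 1.66 to 34.1. Kcnq1, a voltage-gated potassium channel gene, held 11 members and 4 shared peaks, with −log10 q from 2.58 to 23.9. Cacna1c and Cacna1d, the L-type calcium channel genes of the beta cell, held 5 and 4, and Ryr2, the calcium release channel of the endoplasmic reticulum, 3. Exocytosis genes, 64.4 kb in median length, held 17 members in 8 of 15 genes (53.3%), where 34.3% of all genes of 50 to 100 kb held a member. Beside 59 shared peaks this was 0.288 members per shared peak, below the 0.404 of all genes of 50 to 100 kb. Of these genes Unc13a, a vesicle priming gene, held 5 beside 2 shared peaks, and Syt7, a calcium sensor gene, 3 beside 7.

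The TGF-beta and Wnt pathway list held nearly as many members as shared peaks. It had 32 members and 36 shared wide peaks, 0.889 members per shared peak against 0.377 over all genes, in 11 of 20 genes of 90 kb median length. It had no empty-vector-only peak, and neither had the alpha cell, Krüppel-like factor and Sp, epithelial or AP-1 lists. Of all genes of 50 to 100 kb, 34.3% held a member, with 0.404 members per shared peak. Among the signal transducers, Smad3, which carries the TGF-beta signal to the nucleus, held 7 members and 5 shared peaks, and Smad6, an inhibitor of BMP signals, 3 and 1. Among the nuclear effectors of Wnt, Tcf7l2 held 6 members and 0 shared peaks, Lef1 4 and 1, and Tcf7l1 4 and 8. The members of Lef1 had −log10 q from 5.53 to 20.5 and those of Tcf7l2 from 1.48 to 15.7.

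In Smad3 the members and the shared peaks lay in separate parts of the gene, a pattern seen after the values were known. The 5 shared peaks lay between 7.07 and 51.7 kb from the 5′ end. The 7 members lay between 59.1 and 107 kb, the strongest at chr9:63682340-63682844 with a −log10 q of 24, and the other six at 2.32 to 7.68. In Tcf7l2 the members lay from 15.4 to 187.6 kb from the 5′ end, the strongest at chr19:55790191-55790853. Counting peaks of any width, 18 Klf4 peaks and 3 empty vector peaks touched the gene.

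**Figure D3:**
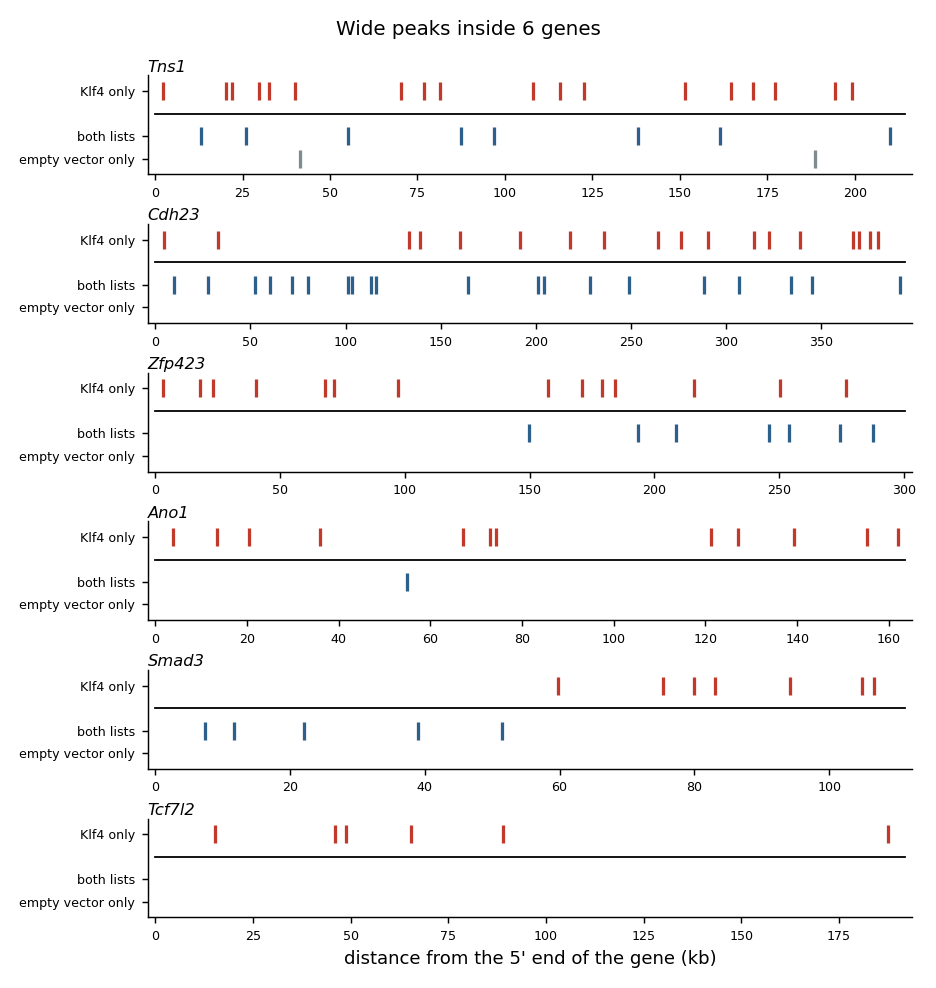
Wide peaks inside 6 genes, each drawn from its 5′ end (left) to its 3′ end (horizontal axes in kb, to a separate scale for each gene). Ticks mark peak centres for Klf4-only peaks (red, above the line), peaks in both lists (blue) and empty-vector-only peaks (grey). Ano1 holds 12 Klf4-only peaks and 1 shared peak, Tcf7l2 holds 6 and 0, and in Smad3 the 5 shared peaks all lie nearer the 5′ end than the 7 Klf4-only peaks.

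Genes of actin and GTPase signalling held members in 17 of 20, at a median length of 264 kb, with 52 members and 164 shared wide peaks, 0.317 members per shared peak. Of all genes of 200 to 500 kb, 54% held a member. Arhgef10l, a guanine nucleotide exchange factor gene, held 11 members and 10 shared peaks, and Tiam1 held 10 and 12. Arhgap26, Arhgef3 and Dock9 held 4 each, and Actn1 and Limk2 3 each. The strongest Dock9 member had a −log10 q of 53.3. Adhesion and junction genes, 176 kb in median length, held members in 10 of 20 (50%), where 43.6% of all genes of 100 to 200 kb did, and 17 of their 31 members lay in Cdh4. Beside 147 shared peaks this was 0.211 members per shared peak, below the 0.36 of all genes of 100 to 200 kb. Lama5, a basement membrane laminin gene, held 3. Long neuronal genes, of 1467 kb median length, held members in 13 of 20 (65%), where 49.6% of all genes over 500 kb did, with 30 members beside 198 shared peaks, 0.152 per shared peak. Csmd2 held 8 of them, the strongest at −log10 q 58.7, Dscam 5, and Rbfox1 and Magi2 3 each.

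The remaining lists were of mostly short genes. The Krüppel-like factor and Sp genes held 4 members in 4 of 26 genes (15.4%), beside 27 shared wide peaks, at 11.3 kb median length, where 16.6% of all genes of 10 to 20 kb held a member. Their 0.148 members per shared peak lay below the 0.59 of all genes of 10 to 20 kb. Klf3 and Klf16 had members of −log10 q 9.22 and 9.34, Klf12 10.1 and Klf13 2.66. Klf4 itself held none. The epithelial genes, 13.3 kb in median length, held 8 members and 25 shared peaks, 0.32 members per shared peak, with a member in 6 of 20 (30%). The pluripotency genes, 12.8 kb in median length, held 7 members and 13 shared peaks, 0.538 members per shared peak, in 3 of 12 (25%). Of these members 5 lay in Esrrb, a nuclear receptor gene of embryonic stem cells, with −log10 q from 2.60 to 32.9. The epithelial and pluripotency lists compare with all genes of 10 to 20 kb. Of those 16.6% held a member, at 0.59 members per shared peak. AP-1 and immediate early genes, 7.57 kb in median length, held 5 members and 5 shared peaks in 4 of 18 genes (22.2%). Of all genes up to 10 kb 2.51% held a member, at 0.563 members per shared peak, and of all genes of 20 to 50 kb 25.2% did. Of the AP-1 and immediate early genes longer than 20 kb, Fosl2, Nr4a1 and Batf held a member and Nr4a3 did not. The part of length in this count was not tested. The cell cycle genes, 9.63 kb in median length, held 2 members in 1 of 16 (6.25%), where 2.51% of all genes up to 10 kb held a member. Beside 13 shared peaks this was 0.154 members per shared peak, below the 0.563 of all genes up to 10 kb. Over the 14 lists, 97 of 247 genes held a member, against 4124 of all 21627 protein-coding genes (19.1%). The median gene length of the lists ran from 7.57 to 1467 kb, and the pooled count was not matched for length.

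Relative to gene length, the members lay farther along their genes than the shared peaks. This could be computed for the 79.9% of protein-coding genes whose strand the RefSeq promoter table gives, counting a peak once for each such gene it lies in. Of 5854 pairs of a member and a gene, 56.9% (55.6 to 58.2) lay past the middle of the gene. The same was so for 49.7% (48.9 to 50.4) of 15738 pairs for shared peaks and 50.5% (47.6 to 53.5) of 1104 pairs for empty-vector-only peaks. In absolute distance the order was the other way, with a median of 32.7 kb from the gene start for members and 41.3 kb for shared peaks. In the first 20% of the gene lay 13.6% (12.7 to 14.5) of members and 17.8% (17.2 to 18.4) of shared peaks. The largest share of members in any stretch of 10% of the gene was 12.7%, from 80 to 90% of its length.

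The difference was seen in genes of 10 to 200 kb. In genes of 10 to 50 kb, 59.7% (57.6 to 61.8) of members and 51.4% (49.8 to 52.9) of shared peaks lay past the middle. In genes of 100 to 200 kb the shares were 56% (53.2 to 58.8) and 47.2% (45.5 to 48.8). In genes over 200 kb they were 53% (50 to 55.8) and 51.5% (50.1 to 52.9), and the intervals overlap. For peaks more than 10 kb from every gene end, the overall difference was 2.57 percentage points (0.667 to 4.47) in place of 7.25 (5.76 to 8.74).

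**Figure D4:**
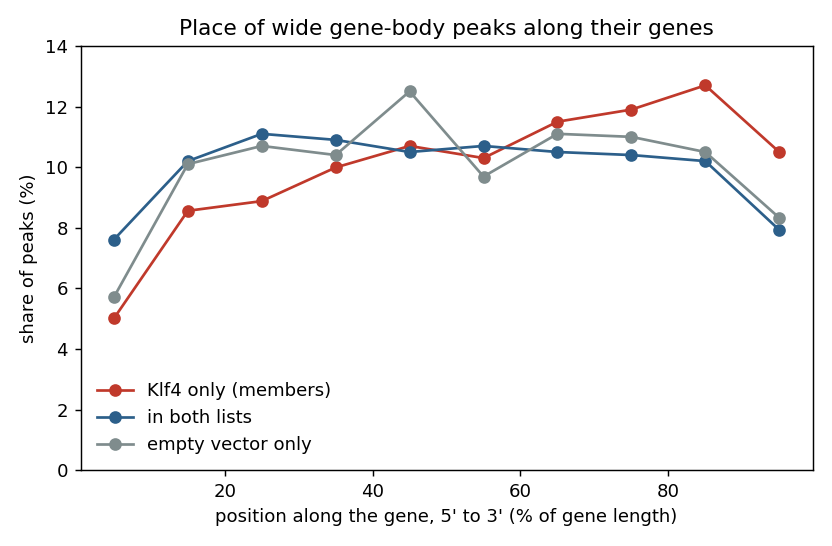
Share of wide intragenic peaks (vertical axis, %) in each 10% of the length of the host gene from the 5′ to the 3′ end (horizontal axis, %), for Klf4-only peaks (red), shared peaks (blue) and empty-vector-only peaks (grey), with no error bars. Klf4-only peaks go from 5.01% in the first 10% to 12.7% at 80 to 90% of the length.

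Fewer members than shared peaks touched a promoter inside the gene. A RefSeq promoter window, 250 bases before to 50 bases after a start, was touched by 203 members, 2.71% (2.36 to 3.1), by 7.38% (7.03 to 7.75) of shared peaks and by 0.931% (0.545 to 1.59) of empty-vector-only peaks. Of 6389 such windows more than 1 kb from every coding gene end, 190 (2.97%) had at least 150 bases under a member. These were 115 coding starts of 105 genes and 75 starts of long noncoding RNAs. Member windows and shared windows had a median GC content of 58.3% and 60.3%, but a median of 7 and 17 CpG sites. At least 10 CpG sites were present in 34.7% of member windows and 71.2% of shared windows.

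CACCC, the core of Krüppel-like factor sites, was present in most member windows. It was found on either strand in 157 of 190, 82.6% (76.6 to 87.4), against 65.8% (63.5 to 68) of 1734 shared windows, 51.3% (49.6 to 52.9) of 3502 windows under no peak, and 57.7% of all 32619 RefSeq promoter windows. Of windows under other peaks 70.4% (67.4 to 73.2) had it, and of 10 windows under empty-vector-only peaks 9 had it, 90% (59.6 to 98.2), so the member share was not above that of the few empty-vector-only windows. Windows with GC content of 50 to 60% gave 84.6% (76.5 to 90.3) for members, 65.8% (61.9 to 69.5) for shared peaks and 66.2% (63.4 to 68.9) for no peak. At GC content of 60% or more the intervals overlapped, with 80.8% (70.7 to 88) and 72% (69 to 74.9) for members and shared peaks.

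The full 8-base motif printed above in Kcnk2, Rnf144b, Prr5 and Pak6 was rarer, and its share was not clearly higher in members as a whole. It was present in 26 member windows, 13.7% (9.51 to 19.3), in 9.92% (8.6 to 11.4) of shared windows, 3.63% (3.06 to 4.3) of windows under no peak and 8.63% of all RefSeq promoter windows. Of the 10 empty-vector-only windows, 2 had it, 20% (5.67 to 51). Its form CCACACCC contains CACCC, so the 2 counts overlap. The same letters in reversed order, a control for base composition, were in 7.37% (4.44 to 12), 4.79% (3.88 to 5.9), 2.26% (1.81 to 2.8) and 4.08% of the same sets.

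The motif share differed between strong and weak members. Under members with a −log10 q of 10 or more, 18 of 78 windows had the motif, 23.1% (15.1 to 33.6), against 9.62% (7.77 to 11.9) of 800 shared windows with a −log10 q of 10 to 50. Some windows share a peak, and counted by peak the shares were 15 of 65 members, 23.1% (14.5 to 34.6), and 10.9% (8.76 to 13.6) of 649 shared peaks. Under members below 10, 8 of 112 windows had it, 7.14% (3.66 to 13.5), against 8.75% (5.28 to 14.2) of 160 shared windows. The reversed letters were in 7.69% (3.57 to 15.8) and 5.25% (3.91 to 7.02) at 10 to 50. Below 10 they were in 7.14% (3.66 to 13.5) of member windows, as often as the motif itself, and in 1.88% (0.64 to 5.37) of shared windows. Strength classes had been planned without bounds, the bounds were set after the data were seen, and no test of the difference between strong and weak members was made.

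**Figure D5:**
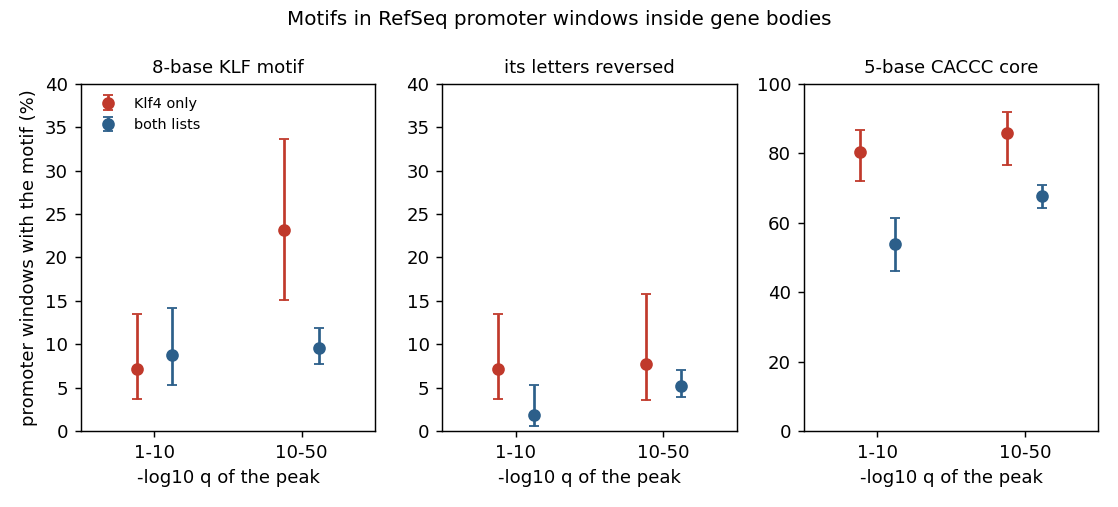
Share of RefSeq promoter windows inside genes that hold the 8-base KLF motif (left), its letters in reversed order (middle) or CACCC (right), under Klf4-only peaks (red) and shared peaks (blue), by the −log10 q of the peak (horizontal axes), with 95% Wilson intervals that cover counting error only. The vertical axes are in % and the right panel has a different scale. The 8-base motif is in 23.1% of windows under members of −log10 q 10 to 50 and 9.62% under shared peaks, and CACCC is higher under members in both strength classes.

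Motifs of other factor families were searched in the same windows. The AP-1 motif TGANTCA was in 10% (6.5 to 15.1) of member and 6.63% (5.55 to 7.9) of shared windows, the NK2 motif CAAGTG in 15.8% (11.3 to 21.6) and 12.2% (10.8 to 13.9), and the TEAD motif CATTCC in 12.6% (8.64 to 18.1) and 12.5% (11 to 14.1). The GATA motif AGATAAG was in 4.21% (2.15 to 8.09) and 1.38% (0.932 to 2.05), and the homeobox motif TAATTA in 1.05% (0.289 to 3.76) and 3.4% (2.65 to 4.36). Of all RefSeq promoter windows 7.85% held the AP-1 motif, 13.5% NK2, 14.6% TEAD, 3.04% GATA and 5.25% homeobox. Windows with no peak held the GATA motif in 4.23% (3.61 to 4.94), as often as member windows, and AP-1 in 8.97% and NK2 in 17.2%. The forkhead motifs TGTTTAC and TGTTTGC together were in 5.79% of member, 7.15% of shared and 8.52% of all windows, the E-box CAGATGG in 5.79%, 4.9% and 5.33%, and the MAF motif TGCTGAC in 4.21%, 5.36% and 4.71%. The RFX and CTCF motifs were in 0 of 190 member windows, with a Wilson upper bound of 1.98% for each, and in 0.98% and 0% of shared windows. They were in only 0.567% and 0.0123% of all RefSeq promoter windows, so 0 of 190 says little about either. Apart from the KLF searches, only GATA had member and shared intervals that did not overlap, and it rested on 8 member windows.

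Coding starts under members were spread over unlike genes. Besides those printed above, the 8-base motif was in windows of Dgka, a diacylglycerol kinase gene (member −log10 q 40), Sp140 (16.1), Ece1, the endothelin-converting enzyme gene (11.9), Espn, an actin bundling gene (10.4), Capg, an actin capping gene (8.88), and Dnmt3l, a cofactor of DNA methylation (8). Catsperg1 and Mical1 had it too, under members of −log10 q 11.4 and 2.56. Kcnk2 had the motif in 2 windows under a single member of 1190 bp, in a gene with no shared wide peak.

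A few members lay on microRNA genes. Of the members, 18, or 0.24% (0.152 to 0.379), touched a hairpin of the RefSeq microRNA sequence table, against 0.161% (0.114 to 0.227) of shared peaks, and these intervals overlap. Counted on the microRNA genes of the RefSeq gene table instead, 21 members (0.28%) and 0.166% of shared peaks touched one. The 18 members overlapped 19 of the 554 hairpins inside gene bodies, all whole but Mir7031. The mature sequences of 4 of them are printed from RefSeq because their hosts or roles are well described, with the seed (bases 2 to 8) in capitals. They lie in Igf2, Dnm1, Ctdspl and Myh7b, and the 4 seeds differ.
mmu-miR-483-5p: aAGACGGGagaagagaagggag
mmu-miR-199b-3p: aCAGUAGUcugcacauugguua
mmu-miR-26a-5p: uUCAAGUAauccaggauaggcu
mmu-miR-499-5p: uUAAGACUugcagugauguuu

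The member over Mir483 inside Igf2, the insulin-like growth factor 2 gene, was 558 bp wide with a −log10 q of 12.9. The Mir199b member in Dnm1, a dynamin gene, had 17.8, and that over Mir26a-1 in Ctdspl, a phosphatase gene, 8.54. The Mir499 member in Myh7b, a myosin heavy chain gene, was the weakest of these, at 4.83.

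Joining members with gaps of up to 50 kb gave 3801 runs, of which 2257 were single members and 33 held 10 or more. Genes and wide peaks are themselves unevenly placed, and whether members group beyond that was not tested. The fullest run, at chr7:24917630-25385128, held 24 members in 12 genes with 18 shared wide peaks among them. Pou2f2, a POU transcription factor gene, held 5 of these and Grik5, a kainate receptor gene, 3. Runs of 18 lay in Tns1 and across Mad1l1 and Elfn1, and runs of 17 lay in Cdh4, across Cdh23, Vsir and Psap, and across Celsr1, Gramd4, Cerk and neighbours. The median distance from a member to the nearest empty vector peak of any width was 4449 bp. It was within 1 kb for 9.48% of members and beyond 10 kb for 19.1%.

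Chromosomes differed in the density of members. Per Mb of gene body more than 1 kb from gene ends, chromosome 11 held 12.5, chromosomes 5 and 7 held 11 each, and X held 1.14. Shared peaks were also densest on 11 (29.4 per Mb) and sparsest on X (5.94). The Klf4-only share of wide intragenic peaks was highest on 7, at 32% (30 to 34.2), and 17, at 32% (29.4 to 34.7), and lowest on X, at 16.1% (12.5 to 20.6), and 13, at 20.1% (17.7 to 22.7), around the 27.4% of all chromosomes together.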

How the data were processed

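The deposited data are 2 broadPeak lists from 8 libraries, 1 list for each group, read in mm10 (GRCm38) coordinates. Per the submitters' processing notes, FastQC, Bowtie2, MACS2, DiffBind and mm10 were named. Per the series' design text, MACS2 called the peaks and DiffBind compared accessibility over 4 biological replicates a group, a comparison not used here. Versions and options are not given in the sources used here, nor is whether libraries were merged before or after peak calling, or how transposase offsets and duplicates were handled. Each deposited peak has a fold enrichment (the authors' ratio), the −log10 of its q-value and a score made from it. The labels name an mRNA-seq library kit beside the ATAC-seq kit, which was not resolved.

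Members were found by overlap of 1 bp with Python 3.11.15, numpy 2.4.6, pandas 2.3.3 and scipy 1.17.1, with genes from a RefSeq table of GRCm38.p6 and promoter windows, microRNAs and strand from RefSeq tables of the same build. The member search was tested on simulated data and found 200 of 200 planted members among 1000 peaks, and the motif search found the motif in 1000 of 1000 sequences. Motifs had been planned over whole peaks and exons as an annotation. With no genome used here, motifs were counted only in the 300-base promoter windows, and exons were not analysed here.

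The members, gene lists and comparisons were chosen with earlier results of these data known. The named items are the 12 members with the highest −log10 q, the 5 widest, the 12 genes with the most members, the 8 densest genes of 3 or more members, and listed genes with 3 or more members or in the beta cell factor, alpha cell and Krüppel-like factor lists. Some items that this rule names are not reported here. Any other gene was named after its values were seen. The 4 labelled replicates of each group are merged, so nothing was tested. Intervals treat peaks as independent.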

Additional observations from a re-analysis of the deposited data

How the results depend on the processing

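No paired analysis was possible because each group is 1 merged list, and for the same reason no replicate block was fitted and no replicate left out. Exon shares and motifs over whole peaks or central windows were not run, since no genome was used here. Of 88 alternative values, 59 stayed within 1.5 times (counts) or within the counting interval (shares and differences), and 29 moved. The settings for list length, window cover, 1 window per gene and window length were chosen after seeing the data. Strength and GC classes were planned, and their bounds were set after seeing the data. The cause was not tested for any.

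The number of members was 1727 at a minimum width of 1000 bp, 4540 and 2325 at a −log10 q of at least 5 and 10, and 4528 more than 10 kb from gene ends. Host genes numbered 1375 at 1000 bp, 1749 at a −log10 q of at least 10 and 2300 beyond 10 kb. The Klf4-only share was 30% at 400 bp, 20.3% at 1000 bp, 21.5% and 15.9% at a −log10 q of at least 5 and 10, 24.8% with no empty vector peak within 1 kb, 39.8% where less than 50% cover was asked for, 24.5% beyond 10 kb from gene ends, and 23.7% with lists of equal length. The difference in the share past the gene middle was 12.3 points at 1000 bp, 9.47 at a −log10 q of at least 10, 5.51 beyond 2.5 kb and 2.57 beyond 10 kb from gene ends, and it was above 0 in each.

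The KLF motif difference, 3.76 points, has an interval from -0.667 to 9.53. It was -2.36 at 1000 bp, 13 at a −log10 q of at least 10, 13.5 at 10 to 50, -1.61 at 1 to 10, and 16.8 for CACCC alone, so its direction was not stable. The CACCC difference was above 0 under every alternative, from 7.54 to 26.6 points. At GC content of 60% or more it was 8.74 points, and its interval, from -1.76 to 16.6, includes 0. The 26.6 points were at a −log10 q of 1 to 10, where median GC content was 58.3% in member windows and 53.3% in shared windows. Unknown depth limits every share that rests on weak peaks.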

Other observations

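Gene families of 15 or more protein-coding genes with a common symbol stem were counted after the data were seen, as values without a test. The Adamts family of secreted metalloproteases had 25 Klf4-only wide peaks and 13 shared ones in 19 genes of 114 kb median length, 1.92 per shared peak, and no empty-vector-only peak. Adamts2 held 8 and Adamts14 held 6, beside 4 and 1 shared peaks. The Sox transcription factor genes held 10 Klf4-only and 8 shared peaks, in 7 of 19 genes (36.8%) of 4.79 kb median length, with 2 each in Sox5, Sox6 and Sox13. These 3 genes, of 953863, 569905 and 42160 bases, are far longer than the family median. Sox7, Sox8, Sox10 and Sox12 held 1 each and no shared wide peak. Of all protein-coding genes 19.1% held a member. The share was 2.51% up to 10 kb, 25.2% at 20 to 50 kb and 49.6% over 500 kb. The Myo genes, which code for myosins, held 60 Klf4-only and 102 shared peaks in 25 genes of 103 kb median length, 19 of which (76%) held a member, where 43.6% of all genes of 100 to 200 kb did. Over all genes there were 0.377 Klf4-only peaks per shared peak.

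Klf4-only wide intragenic peaks touched a long noncoding RNA gene in 6.18% of cases, shared peaks in 7.5% and empty-vector-only peaks in 6.09%.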
